A study of Mus musculus with 6 samples.

Results

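Members of the BCL2 family decide whether a mitochondrion opens its outer membrane and the cell enters apoptosis. The family genes followed here were Bcl2, Bcl2l1 (BCL-XL), Mcl1, Bax, Bak1, Bid, Bad, Bcl2l11 (BIM), Bbc3 (PUMA) and Bnip3. These 10 genes were taken by symbol, because the family receives ER stress and survival signals, from the 24421 gene symbols counted in each library. All 10 were among the 12766 genes with enough counts to be tested. The libraries came from 3T3-L1 adipocytes, a clonal mouse cell line that turns into fat cells in culture. Its strain is labelled C57BL/6. The paper names C57BL/6J for its mice and no strain for this line, so the label was not checked. Cells of both groups were differentiated with insulin (870 nM), TZD (5 µM), Dex (1 µM) and IBMX (500 µM), and the last pair was withdrawn on day 3. On day 7 they received 100 pfu/cell of an adenovirus, carrying LacZ in the control group (AdLacZ, n = 3) or a codon-optimized Lmo3 in the other group (AdLmo3, n = 3), and RNA was studied 3 days later. Every library is thus from virus-infected cells, and no library of uninfected cells was analysed here.

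In this family the pro-survival proteins BCL2, BCL-XL and MCL1 hold the effectors BAX and BAK in check, and the BH3-only proteins BID, BAD, BIM and PUMA relieve that block. BNIP3 carries a BH3-like stretch and sits in the outer mitochondrial membrane, where it acts as a receptor for mitophagy. Several of the genes are classical transcription targets: Bbc3 and Bax of p53, Bcl2l11 and Bbc3 of FOXO factors, and Bnip3 of the hypoxia-inducible factors. Much of the family's control lies in protein binding, phosphorylation and degradation, which mRNA counts do not measure.

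Promoter windows of Bnip3, Bax, Bbc3 and, for comparison, Ldha are printed below as a description. Bnip3 varied more between libraries than any other member and did so beside hypoxia-inducible genes. The counts gave no such reason for Bax or Bbc3, and the part of the marked stretches in any count was not tested. Each window runs from 250 bases before to 50 bases after a RefSeq transcript start (GRCm38.p6), and all 4 lie on chromosome 7. Capitals mark ACGTG or its reverse complement CACGT, a form of the hypoxia response element core. No other form, such as GCGTG, was searched or marked. In Bbc3 the capitals mark TGTTTAC, a forkhead (FOXO) element. Where the 2 strands of ACGTG overlap they read as CACGTG.
Bnip3, chr7:138909457-138909756, minus strand: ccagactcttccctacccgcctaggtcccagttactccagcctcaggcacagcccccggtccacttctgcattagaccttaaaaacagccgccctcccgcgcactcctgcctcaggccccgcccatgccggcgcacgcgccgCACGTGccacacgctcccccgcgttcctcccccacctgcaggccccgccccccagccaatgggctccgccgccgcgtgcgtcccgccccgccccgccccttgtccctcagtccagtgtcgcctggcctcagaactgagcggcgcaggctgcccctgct
Ldha, chr7:46845554-46845853, plus strand: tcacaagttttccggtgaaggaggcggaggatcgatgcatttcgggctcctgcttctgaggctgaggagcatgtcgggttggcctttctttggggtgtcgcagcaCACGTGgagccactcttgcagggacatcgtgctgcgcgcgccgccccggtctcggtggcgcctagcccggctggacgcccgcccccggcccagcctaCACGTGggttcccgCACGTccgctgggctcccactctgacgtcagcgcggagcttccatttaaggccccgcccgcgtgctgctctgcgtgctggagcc
Bax, chr7:45466849-45467148, minus strand: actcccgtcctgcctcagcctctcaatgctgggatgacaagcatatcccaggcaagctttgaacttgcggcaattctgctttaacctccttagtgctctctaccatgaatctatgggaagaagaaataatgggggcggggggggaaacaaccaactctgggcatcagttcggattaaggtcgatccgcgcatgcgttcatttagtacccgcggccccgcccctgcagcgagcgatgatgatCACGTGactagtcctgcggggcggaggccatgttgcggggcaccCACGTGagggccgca
Bbc3, second window, chr7:16310011-16310310, plus strand: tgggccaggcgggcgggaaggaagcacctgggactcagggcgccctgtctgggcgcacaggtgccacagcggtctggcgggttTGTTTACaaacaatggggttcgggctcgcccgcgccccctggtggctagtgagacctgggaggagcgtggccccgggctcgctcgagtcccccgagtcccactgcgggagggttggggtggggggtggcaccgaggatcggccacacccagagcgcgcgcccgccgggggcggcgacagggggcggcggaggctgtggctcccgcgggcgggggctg
In Bnip3 the stretch begins 108 bases before the start, and in Ldha, a hypoxia-inducible glycolytic gene shown for comparison, stretches begin 145, 48 and 34 bases before it.

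With both strands searched, ACGTG stood in 19.6% of the 32851 windows and in at least 1 window of 21.8% of the 27025 genes. It was present in 3 of the 10 family genes (Bnip3, Bax and Bbc3) and in 9 of the 11 genes with a window on a list of hypoxia-inducible factors and their targets. TGTTTAC stood in a window of 4.05% of all genes and of 2 family genes, Bbc3 and Bcl2l11. A match of letters is a description of the window and does not show binding.

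Gene counts summed to 28035639 to 38332335 per library, so that 3 counts, taken as the smallest detectable number, equal 0.0783 to 0.107 CPM (counts scaled to library size, with TMM factors in edgeR in all values below except these floors). Floors cover counting error only. No count fell on Lmo3 in any library, which leaves the virus labels unchecked, since the transgene differs in sequence from the mouse gene. The adipocyte identity was checked with 8 markers whose summed level was 19866 to 23202 CPM in AdLacZ and 26554 to 32162 CPM in AdLmo3, 6 of them higher in AdLmo3 at an adjusted p under 0.05 (2.71% of all tested genes were). Summed preadipocyte markers ranged from 15360 to 22981 CPM over all libraries, with none of 8 called in either direction (4.28% of all genes were). Macrophage markers summed to at most 4.61 CPM and endothelial markers to at most 2.38 CPM. In bulk RNA, a change in the share of one kind of cell and a change of RNA per cell cannot be told apart. A summed interferon response of 2890 CPM set AdLmo3 replicate 3 apart from the other libraries (549 to 1405 CPM), and AdLacZ replicate 1 stood apart in hypoxia-inducible genes, as described with Bnip3.

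None of the 10 family genes differed between AdLmo3 and AdLacZ at an adjusted p under 0.05 in edgeR's quasi-likelihood test, in a comparison where 4.28% of all tested genes did (2.71% higher and 1.57% lower in AdLmo3). The balance of those calls depended on the scaling, with 346 higher and 201 lower under TMM, and 266 higher and 501 lower when library totals alone were used. DESeq2 and limma voom also called 0 of the 10, against 8.32% and 4.4% of all genes. At an unadjusted p under 0.05 there was 1 member, Mcl1, where 20.6% of all genes reached that level. In AdLmo3 the fitted level was lower for 7 members and higher for 3, and their median log2 fold change was -0.12, beside 0.00 for all tested genes. The CPM of the groups did not overlap for 3 members, Bcl2l1 (higher) and Mcl1 and Bid (lower), a pattern seen in 26.5% of all genes. A setting without AdLacZ replicate 1 and AdLmo3 replicate 3 was chosen after the data were seen. In it 0 members were called, beside 234 of 12820 tested genes. There 0 members had an unadjusted p under 0.05, and the share of all genes at that level was not counted.

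**Figure D1:**
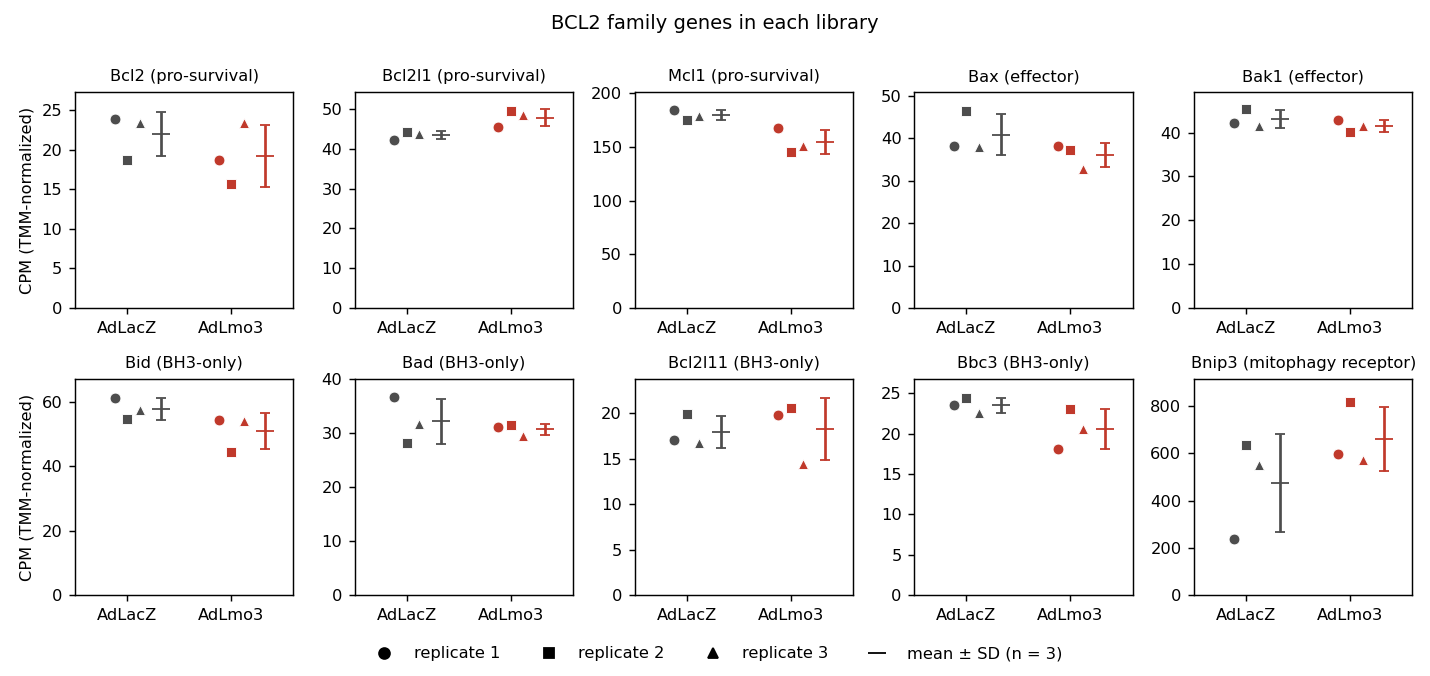
TMM-normalized CPM (y axis, from 0) of the 10 family genes in the 3 AdLacZ and 3 AdLmo3 libraries, with the mean ± SD beside the points of each group. The groups overlap for 7 genes, and AdLacZ replicate 1 lies far below the other libraries for Bnip3.

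Per kilobase of exon, Bnip3 was the most abundant member in both groups, with 209 ± 91.9 RPKM in AdLacZ and 292 ± 59.9 RPKM in AdLmo3 (SD, n = 3 each). Mcl1 (52.5 ± 1.35 RPKM in AdLacZ) and Bax (25.9 ± 3.08) followed, and the ranges of these 3 genes over the 6 libraries did not overlap. Bak1 (17.9 RPKM), Bid (16.3), Bad (12.6), Bbc3 (11.1) and Bcl2l1 (9.46) formed a series in which each gene's range overlapped that of the next. Bcl2 (2.40 RPKM) and Bcl2l11 (2.23) were the lowest and overlapped each other, below all the rest. Over the mean of all libraries, 0.854% of the 12293 tested genes with a known exon length lay above Bnip3, 8.08% above Mcl1 and 72.6% above Bcl2. The order was the same in AdLmo3 except for an exchange of Bbc3 with Bcl2l1 and of Bcl2 with Bcl2l11, neighbours whose ranges overlap.

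**Figure D2:**
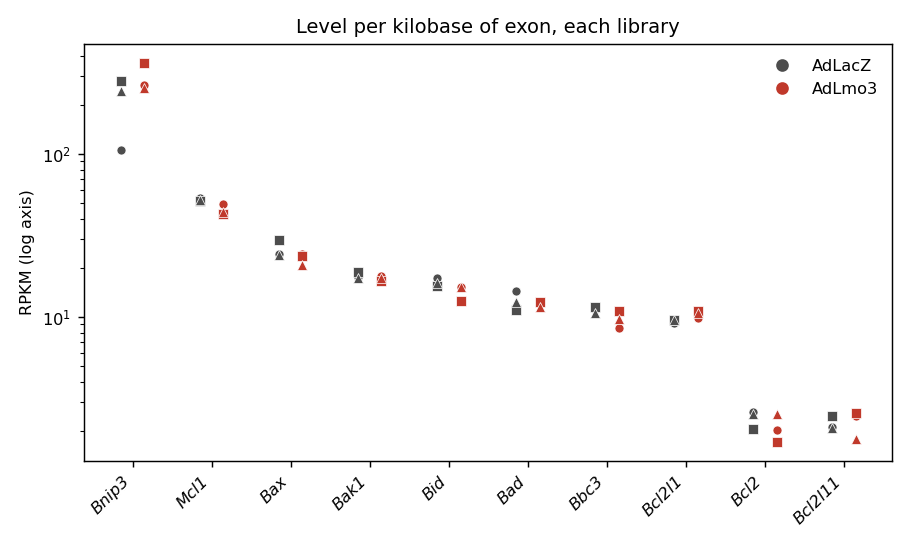
Level per kilobase of exon (RPKM, CPM divided by exon length, log axis) of each family gene in every library, ordered by the mean in AdLacZ (circle, square and triangle for replicates 1, 2 and 3). Bnip3, Mcl1 and Bax stand apart from each other and from the rest, and Bcl2 and Bcl2l11 lie between 1.71 and 2.61 RPKM.

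Among the pro-survival genes, Mcl1, which encodes a short-lived protein (chromosome 3, 95658788 to 95663176, GRCm38), was the most abundant and had the smallest p of all members. It had 184, 175 and 179 CPM in AdLacZ replicates 1, 2 and 3, and 168, 146 and 151 CPM in AdLmo3 replicates 1, 2 and 3. All AdLmo3 values lay below all AdLacZ values. Its log2 fold change of -0.21 (95% interval -0.38 to -0.05, unadjusted p = 0.0182, adjusted p = 0.147 from edgeR) did not pass the threshold. Over the 14 alternative fits its adjusted p ranged from 0.0671 to 0.418.

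Bcl2l1 (chromosome 2, 152780668 to 152831728) encodes BCL-XL, the pro-survival protein of many resting cells. Its level was 42.2, 44.1 and 43.8 CPM in the AdLacZ libraries and 45.4, 49.5 and 48.4 CPM in the AdLmo3 libraries. The groups lay close together without overlap, and AdLacZ spread so little that 93.1% of all tested genes had a wider range in that group. A log2 fold change of 0.14 (95% interval -0.0023 to 0.28, adjusted p = 0.250, edgeR) did not pass the threshold, and with library totals it was 0.07.

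Bcl2 (chromosome 1, 106538178 to 106714274) gave its name to the family. It had 23.9, 18.7 and 23.3 CPM in AdLacZ and 18.6, 15.6 and 23.3 CPM in AdLmo3, so that the groups overlapped and replicate 3 was at the same level in both. The fitted difference on the log2 scale was -0.20 (95% interval -0.56 to 0.16, adjusted p = 0.538, edgeR). Without AdLmo3 replicate 3 it was -0.36 (adjusted p = 0.232), and without AdLmo3 replicate 2 it was -0.07 (adjusted p = 0.874).

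Levels were summed by RPKM over the 3 pro-survival members Bcl2, Bcl2l1 and Mcl1. Mcl1 made up 81.6% ± 0.403 of this sum in AdLacZ and 78.3% ± 1.86 in AdLmo3 (SD, n = 3 each). The sum itself was 62.9 to 65.7 RPKM in AdLacZ and 55.1 to 61.0 RPKM in AdLmo3. Their relative Bcl2l2 was left out of it, at a mean of 20.4 RPKM in AdLacZ and 19.0 RPKM in AdLmo3. That mean lay above those of Bcl2l1 and Bcl2 in both groups, so the share of Mcl1 holds for the 3 summed members only. The share also rests on annotated exon lengths, whose use in these cells was not measured. The ratio of Bcl2l1 to Bcl2 was 3.53 to 4.71 in AdLacZ and 4.15 to 6.33 in AdLmo3, with overlapping ranges.

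Both effector genes were expressed in every library. Bax (chromosome 7, 45461697 to 45466898) had 38.1, 46.4 and 37.8 CPM in AdLacZ and 38.1, 37.2 and 32.7 CPM in AdLmo3. AdLacZ replicate 2 was the highest library and AdLmo3 replicate 3 the lowest, and the rest lay within 1 CPM of each other. Bax had a log2 fold change of -0.18 (95% interval -0.41 to 0.05, adjusted p = 0.365, edgeR), which was -0.08 without AdLacZ replicate 2 and -0.12 without AdLmo3 replicate 3.

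Bak1 (chromosome 17, 27019810 to 27029009), the second effector, varied little, with 42.3, 45.4 and 41.4 CPM in AdLacZ and 42.9, 40.2 and 41.4 CPM in AdLmo3. All 6 values lay between 40.2 and 45.4 CPM, and the log2 fold change of -0.05 had a 95% interval of -0.20 to 0.10 (adjusted p = 0.707, edgeR). Its value was -0.01 without AdLacZ replicate 2, -0.03 without AdLmo3 replicate 2 and -0.12 with library totals. Bak1 shares 25.5% of its exon bases with Ggnbp1 on the opposite strand. The strand setting of the counting is not given, so reads there cannot be assigned to one gene. A ratio was formed of the summed RPKM of Bcl2, Bcl2l1 and Mcl1, without Bcl2l2, to that of Bax and Bak1. It was 1.48 ± 0.154 in AdLacZ and 1.44 ± 0.0702 in AdLmo3 (SD, n = 3 each), and the groups overlapped.

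Of the BH3-only genes, Bid (chromosome 6, 120891930 to 120916853) encodes the protein that caspase-8 cuts to link death receptors to mitochondria. It had 61.2, 54.6 and 57.3 CPM in AdLacZ and 54.4, 44.5 and 54.1 CPM in AdLmo3. The groups did not overlap, but the highest AdLmo3 library lay within 1 CPM of the lowest control, and the log2 fold change of -0.18 (95% interval -0.39 to 0.03) had an adjusted p of 0.313 (edgeR). Without AdLmo3 replicate 2, the lowest library, it was -0.09. Bid shares 17.7% of its exon bases with Bcl2l13 on the opposite strand, and the strand setting of the counting is not given in the sources used here, so reads there cannot be assigned to one gene.

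Bad (chromosome 19, 6941861 to 6951899) encodes a BH3-only protein that insulin and growth factor signals inactivate by phosphorylation. It had 36.6, 28.2 and 31.7 CPM in AdLacZ and 31.1, 31.5 and 29.5 CPM in AdLmo3, and the AdLmo3 values all fell inside the range of the controls. For Bad the fitted difference was -0.07 (95% interval -0.29 to 0.16, adjusted p = 0.757, edgeR). It was 0.04 without AdLacZ replicate 1, the highest library, and 0.06 without that library and AdLmo3 replicate 3, so no direction can be given. An exon overlap of 20.5% with Gpr137 on the opposite strand adds to this uncertainty.

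Bcl2l11 (chromosome 2, 128126038 to 128162547), encoding BIM, was the least abundant member in AdLacZ per kilobase. It had 17.1, 19.9 and 16.7 CPM in AdLacZ and 19.8, 20.6 and 14.4 CPM in AdLmo3, with the lowest and highest library both in AdLmo3. Its log2 fold change was 0.03 (95% interval -0.30 to 0.36, adjusted p = 0.933, edgeR), and its sign turned when library totals replaced TMM (-0.04) and without any of 4 single libraries (as low as -0.06 without AdLmo3 replicate 2).

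Bbc3 (chromosome 7, 16308393 to 16318205), encoding PUMA, had 23.6, 24.4 and 22.5 CPM in AdLacZ and 18.1, 23.1 and 20.5 CPM in AdLmo3. The groups overlapped through AdLmo3 replicate 2 alone. Bbc3 had a log2 fold change of -0.19 (95% interval -0.42 to 0.04, adjusted p = 0.329, edgeR), which kept its sign in all 14 alternative fits, between -0.28 (without AdLmo3 replicate 2) and -0.10 (without AdLmo3 replicate 1).

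**Figure D3:**
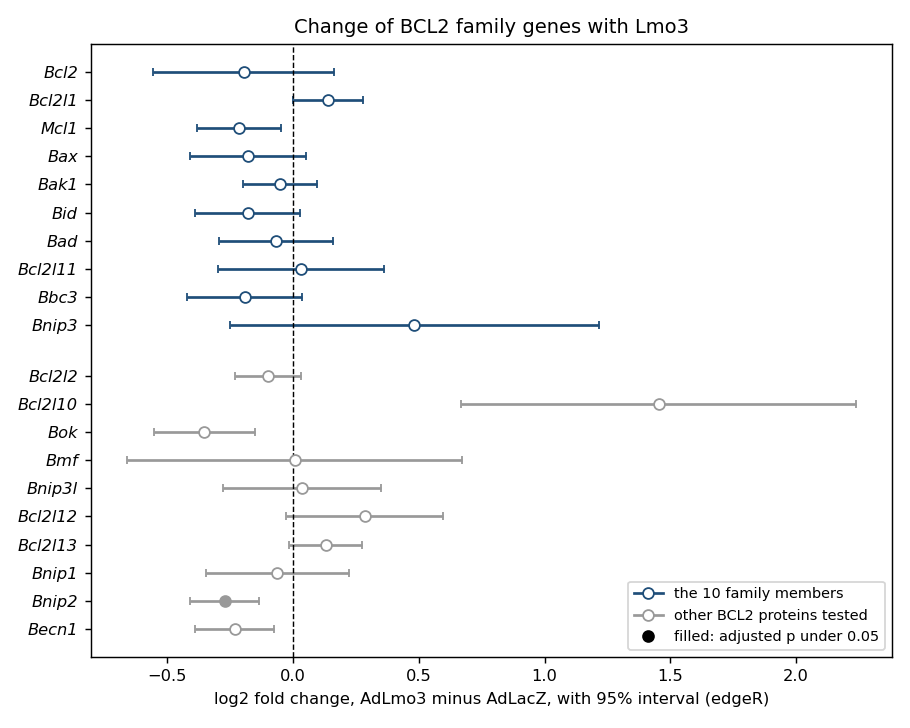
Log2 fold change of AdLmo3 over AdLacZ with its 95% interval (x axis, edgeR) for the 10 family genes and for 10 other BCL2 proteins with enough counts. Filled points have an adjusted p under 0.05; only Bnip2 does in this fit. The interval of Bcl2l10 lies wholly above 0, and that of Bnip3 spans 0.

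Bnip3 (chromosome 7, 138890836 to 138909519) showed the largest fitted difference of the family and by far the largest spread. It had 238, 633 and 549 CPM in AdLacZ replicates 1, 2 and 3, and 595, 817 and 571 CPM in AdLmo3 replicates 1, 2 and 3. The groups overlapped, and AdLacZ replicate 1 was alone below 500 CPM, 2.48-fold under the mean of the other controls. On the log2 scale the fitted difference was 0.48 (95% interval -0.25 to 1.22, adjusted p = 0.450, edgeR), and without AdLacZ replicate 1 it was 0.16 (adjusted p = 0.669). It was 0.75 without AdLacZ replicate 2 and 0.30 without AdLmo3 replicate 2, neither past the threshold. Only 1.62% of tested genes had a wider log2 range within AdLacZ than Bnip3, compared with 16.8% within AdLmo3. Of the 75-base stretches of Bnip3, 34.4% also occur in other annotated genes, among them Gm45507, which overlaps 22.3% of its exon bases, so its counts carry that uncertainty.

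The library that was low for Bnip3 was low for most of the listed hypoxia-inducible factor genes. Of the 13 genes of that list, 10 had their lowest value in AdLacZ replicate 1, as did 17.3% of all tested genes. Their summed level was 2108 CPM there and 3503 to 4772 CPM in the other libraries. These genes are named here after their values were seen: in AdLacZ replicate 1, Egln3, an oxygen-sensing prolyl hydroxylase, was 3.63-fold below the mean of the other controls, Pdk1, which restrains pyruvate dehydrogenase, 2.45-fold, Ldha 2.13-fold and the glucose transporter gene Slc2a1 2.59-fold. Car9, a carbonic anhydrase, was furthest below, at 1.63 CPM where the other controls had 19.2 and 14.1 CPM. The factor genes themselves were not lowest in that library, as Hif1a was at 209 CPM in AdLacZ replicate 1 and 190 to 230 CPM elsewhere, and Epas1 at 141 CPM and 106 to 177 CPM elsewhere. The part of the oxygen-responsive genes in the level of Bnip3 was not tested.

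**Figure D4:**
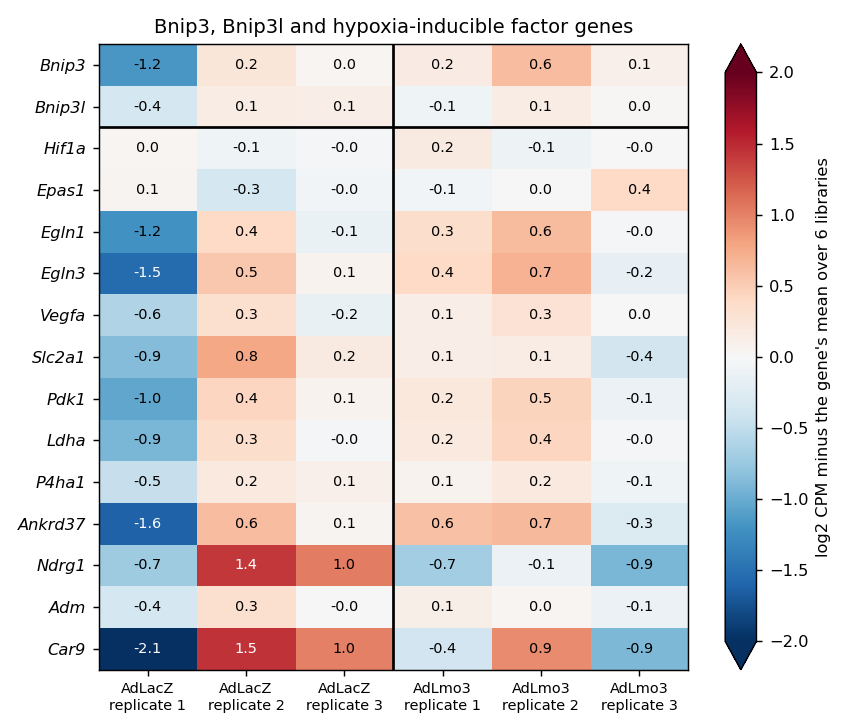
Log2 CPM of Bnip3, its paralogue Bnip3l and 13 hypoxia-inducible factors and targets in each library, relative to the gene's mean over the 6 libraries (colour and printed value). AdLacZ replicate 1 is the lowest library for Bnip3, for Bnip3l and for 10 of the 13 listed genes, while Hif1a and Epas1 are not lowest there.

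Between the groups, 0 of these 13 genes were called by edgeR (4.28% of all genes were), 0 by DESeq2 or voom, and 1 had an unadjusted p under 0.05, with a list median of 0.23. That gene, Ndrg1, a stress-responsive gene, was lower in AdLmo3 in the fit, with 6.18, 27.0 and 20.5 CPM in AdLacZ and 6.24, 9.26 and 5.33 CPM in AdLmo3 (log2 fold change -1.36, adjusted p = 0.151, edgeR). Without AdLacZ replicate 1 the difference was -1.77 with an adjusted p of 0.0152.

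Bnip3l, encoding the mitophagy receptor NIX, is the nearest relative of Bnip3. It had 134, 189 and 189 CPM in AdLacZ and 161, 190 and 174 CPM in AdLmo3, again lowest in AdLacZ replicate 1 by a smaller factor of 1.41. Its log2 fold change was 0.04 (adjusted p = 0.921, edgeR), -0.11 without that library and -0.04 with library totals. Of 10 other mitophagy genes none was called (4.28% of all genes were) by edgeR, 1 was by DESeq2 and 1 by voom, and 2 had an unadjusted p under 0.05. The smallest p belonged to Sqstm1, encoding the autophagy adaptor p62, at 1037, 1106 and 1058 CPM in AdLacZ and 919, 824 and 830 CPM in AdLmo3 (log2 fold change -0.32, adjusted p = 0.0601, edgeR; 0.00150 in DESeq2, and 0.0621 to 0.210 without any single library).

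The genes most alike to the 3 members with the largest fitted change were sought by the root-mean-square difference of centred log2 CPM over the 6 libraries. Nearest to Bnip3 were Itpka (0.0782) and Ppp1r3b (0.112), encoding an inositol trisphosphate kinase and a glycogen-targeting phosphatase subunit. Itpka had 6.72, 17.7 and 14.5 CPM in AdLacZ and 17.3, 25.6 and 17.1 CPM in AdLmo3, low in the same control library as Bnip3. Tdrd3 was among the nearest to Mcl1 (0.0233), and Zdhhc13 (0.0833) and Thoc1 (0.0860) were nearest to Bcl2.

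A further 18 genes of BCL2 proteins or their relatives were followed, of which 10 had enough counts to be tested (median log2 fold change -0.03). Bcl2a1a, Bcl2a1b and Bcl2a1d had 0 counts in all libraries, and Bik, Hrk, Pmaip1 (NOXA), Bcl2l14 and Bcl2l15 stayed at or under 0.296 CPM. Bcl2l15 had 5 to 10 counts in each library, above the 3 taken as detectable, and the other 7 stayed below that number in every library. In the Bcl2a1 genes 55.2% to 68.4% of the 75-base stretches also occur in other genes, mainly each other, so reads from them may not have been counted. Of the 10 tested genes, 1 was called in edgeR, 4 in DESeq2 and 2 in voom, beside 4.28%, 8.32% and 4.4% of all genes.

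The gene called in edgeR was Bnip2, which encodes a BCL2-binding protein. It had 139, 135 and 142 CPM in AdLacZ and 118, 112 and 115 CPM in AdLmo3, without overlap, and the log2 difference was -0.27 ± 0.0601 (standard error) at an adjusted p of 0.0453. The call was lost without any single library (adjusted p 0.0730 to 0.180), without the filter on low counts (0.0611) and with the replicate number as a block (0.0646). Bok, an effector-like member, was at 21.8 ± 1.68 CPM in AdLacZ and 17.1 ± 0.780 CPM in AdLmo3 (log2 fold change -0.35, adjusted p = 0.0646, edgeR). Becn1, whose product beclin 1 binds BCL2 and starts autophagy, was at 157 ± 9.82 and 134 ± 1.75 CPM (-0.23, adjusted p = 0.102), with 43.9% of its exon bases shared with Cntd1 on the other strand.

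The largest fitted change of all followed genes of the family's kin was that of Bcl2l10 (chromosome 9, 75347758 to 75351632), a scarce BCL2 relative. It had 0.871, 0.358 and 0.501 CPM in AdLacZ and 1.27, 1.71 and 1.78 CPM in AdLmo3, all above the controls. Its log2 fold change of 1.45 (95% interval 0.67 to 2.24) had an adjusted p of 0.0561 in edgeR, 0.00788 in DESeq2 and 0.0499 in voom, and of 0.0365 in edgeR without AdLacZ replicate 1. It did not pass without any of the other 5 libraries (0.0589 to 0.205) or with the replicate block (0.0895). The other tested relatives had log2 fold changes between -0.10 and 0.28: Bcl2l2 (-0.10), Bnip1 (-0.06), Bmf (0.01), Bcl2l13 (0.13) and Bcl2l12 (0.28), none past the threshold. The sign of Bmf turned with voom, library totals, the block and 3 single libraries left out.

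The signals that feed the family were read from lists of pathway genes. In the ER stress list, 4 of 18 genes were called, all lower in AdLmo3 (1.57% of all genes were), and the list median was -0.27. On the log2 scale Hspa5, the ER chaperone BiP, fell by 1.16 (adjusted p = 0.0123, edgeR), Trib3, a pseudokinase induced in ER stress, by 0.91 (0.0111) and Ddit3 by 0.84 (0.0471). Ddit3 encodes CHOP, known as a regulator of Bcl2 and Bcl2l11 transcription in ER stress. Chac1, a glutathione-degrading enzyme gene of the same response, was at 49.4, 66.9 and 63.2 CPM in AdLacZ and 41.6, 41.3 and 38.6 CPM in AdLmo3 (log2 fold change -0.56, adjusted p = 0.0308). Without AdLacZ replicate 3, 0 genes of the list were called, without AdLmo3 replicate 2 there was 1 call and without AdLacZ replicate 2 there were 2. With the replicate number as a block there were 3, and Ddit3 missed the threshold (0.0532).

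Among 11 tested p53 and FOXO regulators and targets, 2 were called, in opposite directions (4.28% of all genes were), and the list median was -0.05. Phlda3, a p53 target whose product restrains AKT, was at 106, 101 and 97.6 CPM in AdLacZ and 149, 161 and 160 CPM in AdLmo3, all above the controls. Phlda3 rose by 0.62 ± 0.0669 (standard error) on the log2 scale, with an adjusted p of 0.00352 in edgeR. It was called in all 14 alternative fits (adjusted p up to 0.0348). Gadd45a, a growth arrest gene of the p53 and stress responses, was at 102, 113 and 116 CPM in AdLacZ and 78.0, 75.7 and 69.5 CPM in AdLmo3 (-0.57, adjusted p = 0.00878), and it missed the threshold without AdLacZ replicate 3 (0.0558). The p53 targets Bbc3 and Bax of the family were not called beside them.

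Downstream of the family, 0 of 20 genes of mitochondrial execution, among them cytochrome c, APAF1, caspases and their inhibitors, were called by edgeR, 1 was by DESeq2 and 0 by voom, and 2 had an unadjusted p under 0.05, beside 4.28%, 8.32%, 4.4% and 20.6% of all genes. The smallest p was that of Endog, encoding mitochondrial endonuclease G. It had 6.18, 8.50 and 7.26 CPM in AdLacZ and 10.9, 12.9 and 9.81 CPM in AdLmo3. Its log2 fold change was 0.62, with an adjusted p of 0.0653 in edgeR and 0.00625 in DESeq2. The adjusted p in edgeR was 0.0448 with the replicate number as a block and 0.0369 without the filter on low counts. Without any single library it was 0.0673 to 0.217. Of 10 death receptor genes none was called by edgeR, DESeq2 or voom and 0 had an unadjusted p under 0.05, with the same shares of all genes beside them. Tnfrsf1a, the receptor gene for TNF, had the smallest p (log2 fold change 0.14, adjusted p = 0.356).

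Of 21 survival kinases and regulators of family proteins, 0 were called by edgeR, 4 by DESeq2 and 2 by voom, and 5 had an unadjusted p under 0.05, where the shares of all genes were 4.28%, 8.32%, 4.4% and 20.6%. Akt2, the AKT gene of insulin-responsive tissues, whose kinase acts on BAD and FOXO factors, had 233, 205 and 225 CPM in AdLacZ and 269, 272 and 293 CPM in AdLmo3. The groups did not overlap and the log2 difference was 0.33 (95% interval 0.16 to 0.50), with an adjusted p of 0.0508 in edgeR, 0.00171 in DESeq2 and 0.0418 in voom. In edgeR it passed with RLE factors (0.0487), without the filter on low counts (0.0446) and with at least 1 CPM in 3 libraries (0.0491). It did not pass with library totals (0.0871), with the replicate block (0.0609) or without any single library (0.0667 to 0.166).

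**Figure D5:**
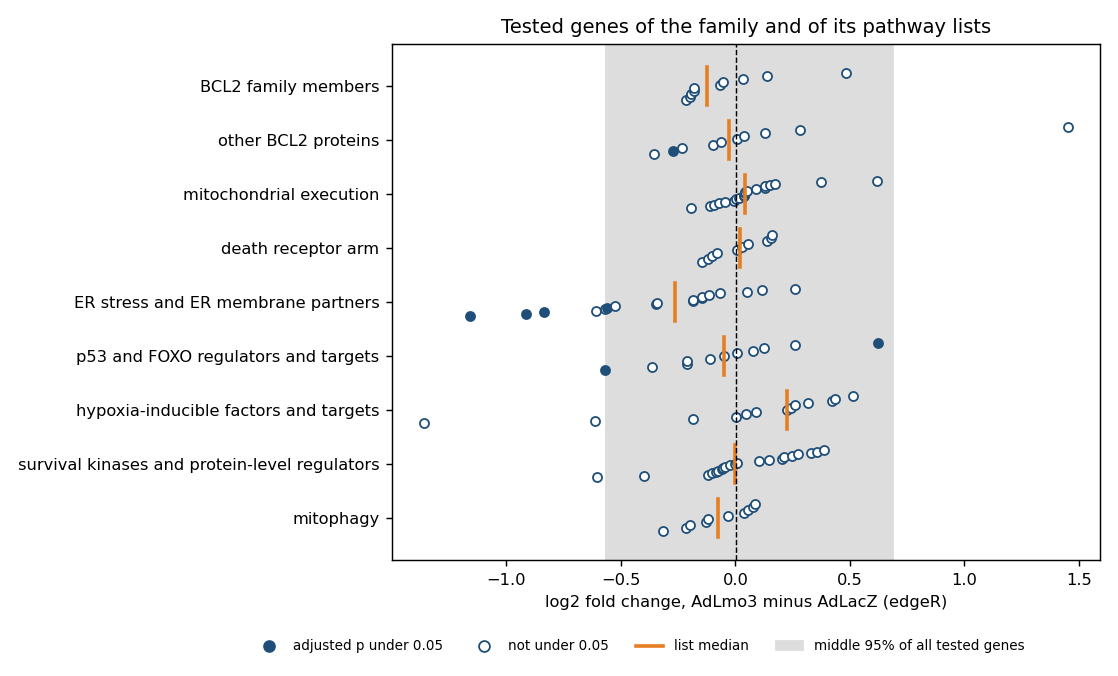
Log2 fold changes of AdLmo3 over AdLacZ (x axis, edgeR) for every tested gene of the family and of 8 pathway lists, with list medians as orange bars and the middle 95% of all tested genes shaded. The family median is -0.12, the ER stress list has 4 filled points (adjusted p under 0.05) on the left, and the p53 and FOXO list has 1 on each side.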

How the data were processed

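RNA-Seq data (75 bp single reads) of 3 AdLacZ and 3 AdLmo3 libraries from 3T3-L1 adipocytes were analysed. The authors mapped the reads and deposited raw counts per gene symbol, 1 table per library. The submitters' processing notes name bcl2fastq, STAR 2.5.0b, DESeq2 1.6.3 and mm10, while the counting program, annotation and strand setting are not given in the sources used here. Reads given to no gene (7.15% to 8.94%) or to several (0.476% to 0.543%) were left out.

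Counts were tested in edgeR 4.0.16 under R 4.3.3 (filterByExpr, TMM, quasi-likelihood test) over 12766 genes with Benjamini-Hochberg adjustment and a threshold of 0.05, without a replicate block. DESeq2 1.42.0, limma voom (limma 3.58.1), other scalings and filters, the block and leaving out libraries were the 14 alternatives. The fits were also run on simulated counts with known changes, a common spread and no outlying library. That run does not gauge the results on the members. RPKM divides CPM by the merged length of all exons annotated for a gene in GENCODE M21 (GRCm38). Which of those exons the cells used was not measured, so RPKM compares different genes on annotated length only. Overlaps and shared 75-base stretches come from that annotation. Promoters were RefSeq windows (GRCm38.p6), and all 10 members matched. Figures were drawn with matplotlib 3.10.9.

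No source says that the 3 libraries of a group came from separate cultures in separate experiments. The p-values set the group difference against the spread between these libraries, and how much of that spread is technical was not tested. Pairs of libraries within a group differed by a chi-square of 22.9 to 61.6 per degree of freedom, more than counting error gives. An exact permutation test of 3 against 3 cannot give p below 0.1 and was not used. The members and lists were chosen with earlier results of these data known. Named were all members and their 18 relatives, the called genes of each list or, where none was called, that of smallest p, and the 2 nearest profiles of the 3 members with the largest fitted change. A gene among these profiles is not reported here.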

Additional observations from a re-analysis of the deposited data

How the results depend on the processing

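Of the 10 members, 0 were called in each of the 14 alternative fits, and 8 kept the sign of their log2 fold change in each. Bad turned to 0.062 without AdLacZ 1 and AdLmo3 3, and ranged from -0.15 to 0.035 with 1 library left out. Bcl2l11 was -0.040 with library totals and -0.061 to 0.17 with 1 library left out. Of the relatives, Bmf was -0.018 with voom, -0.065 with library totals, -0.053 with the block and -0.20 to 0.29 with 1 library left out, Bnip3l was -0.036 with library totals, -0.11 without both libraries and -0.11 to 0.12 with 1 left out, and Bnip1 was -0.15 to 0.068 with 1 left out. Over all genes, 547 calls became 1096 with DESeq2, 234 without both libraries and 77 to 501 with 1 left out. The relatives' 1 call became 4 with DESeq2, 2 with voom, 3 with library totals, 0 with the block, 0 without both libraries and 0 to 1 with 1 left out. Mitochondrial execution rose from 0 calls to 1 with DESeq2, no filter and the block, each time Endog, higher in AdLmo3. With library totals the 1 call was of another gene, lower in AdLmo3. Survival kinases rose from 0 to 4 with DESeq2, 2 with voom, 1 with RLE factors, 3 with no filter, 1 with at least 1 CPM in 3 libraries and 1 with the block, and mitophagy to 1 with DESeq2, voom and library totals. The 4 ER stress calls were 0 to 3 with 1 library left out, the 2 of p53 and FOXO 1 to 3, and the hypoxia list 0 to 1, with 1 without both libraries. The cause of these changes was not tested. Fits with libraries left out also rest on fewer libraries, and the part of that was not tested either.

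Same-numbered libraries deviated together by correlations of 0.03, 0.18 and 0.18. Different numbers averaged -0.06. Deviations were taken from each group's own mean, which ties that average to the same-number values, so it is no baseline for them. Libraries of numbers 2 and 3 correlated best with their own number, and those of number 1 did not. Whether libraries of the same number were handled together cannot be told from these values. The replicate block gave 498 calls over all 12766 tested genes and 0 among the members. In that fit 3 members, Mcl1, Bid and Bnip3, had an unadjusted p under 0.05. The share of all genes at that level was not counted there, so nothing about the family can be read from the 3. Library totals moved the median of all genes to -0.07. With 3 libraries per group, the 95% interval of the log2 fold change ran from -0.0023 to 0.28 for Bcl2l1 and from -0.25 to 1.22 for Bnip3, so that changes of those sizes are not excluded by these counts.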

Other observations

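Mdm2, encoding the ubiquitin ligase that degrades p53, was at 4910 to 5846 CPM in the 6 libraries and ranked 11 of 12293 tested genes per kilobase of exon (1030 RPKM), a value singled out after it was seen. Its log2 fold change was -0.11 (adjusted p = 0.554, edgeR).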
